A study of Mus musculus with 28 samples.

Results

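The genes described here encode parts of the sodium-potassium pump (Na+/K+-ATPase). They are 5 of the 23995 genes listed by the files, taken from a fixed list of names: the beta subunits Atp1b1, Atp1b2 and Atp1b3, and the FXYD regulators Fxyd6 and Fxyd7. Their ribosome-bound mRNA was measured in mice, in axons of retinal ganglion cells (RGCs) where they end in the superior colliculus (SC), in control SC and in retina. The mice were C57BL/6 animals from a cross of the RiboTag knockin line with Pax6-alpha-Cre. In them, Cre switches ribosomal protein L22 to a hemagglutinin-tagged form, and tagged ribosomes are then immunoprecipitated with the mRNA they hold. Pax6-alpha-Cre acts in progenitors of the peripheral retina, so the tag marks RGCs and other retinal cells of that region, and SC neurons carry none. Cre-positive SC therefore samples tagged RGC axons, Cre-negative SC of littermates carries the RiboTag allele unswitched and gives the background of the purification, and Cre-positive eyes, labeled retina, sample the cell bodies. Each of these 3 groups was sequenced in embryos at E17.5, in pups at P0.5 or P7.5, and in adults. There were 2 libraries per group and 24 in all, each pooled from 6 SCs or 3 eyes. Read counts came from 4 more libraries of adult tissue: tagged SC and retina, each with 1 library after ribosome run-off and 1 without it. The age of the adults is not given in the sources used here.

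The pump moves sodium out of the cell and potassium in at the cost of ATP, and so restores the ion gradients that action potentials use up. An alpha subunit carries out transport, a beta subunit is needed for folding, membrane insertion and potassium affinity, and small FXYD proteins attach to the complex and tune its kinetics. Among beta subunits, Atp1b1 is widespread and strong in neurons, Atp1b2 is known as a glial adhesion molecule and in retina helps to anchor retinoschisin at photoreceptors, and Atp1b3 is found in many tissues. Fxyd6 and Fxyd7 are brain FXYD members, and Fxyd7 is found in neurons and astrocytes.

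In mm10, the build of the files, Atp1b1 (ENSMUSG00000026576) lies on the minus strand of chromosome 1 from 164437109 to 164458355. Its exons share 575 of 3081 bases with Nme7, a gene on the opposite strand. The library method did not keep strand, so reads of this stretch cannot be assigned to either gene. Atp1b2 (ENSMUSG00000041329) lies on the minus strand of chromosome 11 from 69599736 to 69605942. Atp1b3 (ENSMUSG00000032412) lies on the minus strand of chromosome 9 from 96332655 to 96364442, and is matched by the pseudogene Gm1848 over 805 bases at 96.4% identity, so its reads are uncertain where the counting could split them. Fxyd6 (ENSMUSG00000066705) lies on the plus strand of chromosome 9 from 45370185 to 45396159. Fxyd7 (ENSMUSG00000036578) lies on the minus strand of chromosome 7 from 31042513 to 31051467, and its median coding transcript of 656.5 bases is the shortest of the 5.

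Levels are FPKM, the fragments of a gene scaled by transcript length and library size. The RNA was reverse-transcribed from oligo-dT and amplified by PCR, and whether length scaling makes genes comparable was not tested. The depth of a library was estimated from the spacing of its low FPKM values and ranged from 0.523 M to 14.4 M fragments. The adult SC libraries were shallow, at 0.556 M to 2.17 M fragments, as was E17.5 Cre-negative replicate 1, at 0.523 M. The level given by 3 fragments, taken as the floor, ran from 0.149 to 4.09 FPKM for Atp1b1 and from 0.457 to 12.6 FPKM for Fxyd7. A value of 0 is not proof that an mRNA was absent: Gapdh, used by every cell, was listed at 0 in 18 of the 24 libraries and Actb at 0 in 3. Pearson correlations between replicates of a group ranged from 0.369 to 0.951 over 7193 genes, and 18 of 24 libraries were closer to a library of another group than to their own replicate. The P0.5 Cre-positive pair stood apart, with a correlation of 0.951 to each other and at most 0.548 to any other library. RGC markers did not separate the groups: 8 of them summed to 28.8 to 3507 FPKM in Cre-positive SC and to 0 to 2060 FPKM in Cre-negative SC, mostly through Pou4f1, while Rbpms was listed at 0 in all 16 SC libraries. The retina libraries held lens markers, which summed to 188.5 to 989.5 FPKM against 0 to 11.7 FPKM in Cre-positive SC. In adult Cre-negative replicate 1, a background library, lens markers summed to 243.6 FPKM with 6 of 6 above 0 and photoreceptor markers to 83.95 FPKM with 8 of 8, and its closest library, at r = 0.753, was from adult retina. As the libraries are bulk samples, fewer tagged axons and less mRNA per axon cannot be told apart.

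Atp1b1 was the main beta subunit of the SC by FPKM. It was above 0 in 15 of 16 SC libraries, each time above the 3-fragment level. In Cre-positive SC it stood at 229 and 7.97 FPKM at E17.5, 54.4 and 65.1 at P0.5, 8.55 and 55.0 at P7.5, and 242 and 0 in adults. Only the P0.5 pair lay close together. In Cre-negative SC it stood at 84.6 and 15.8 FPKM at E17.5, 55.6 and 54.1 at P0.5, 8.28 and 23.9 at P7.5, and 90.6 and 379 in adults. The 2 SC groups overlapped at every stage. In retina it stood at 0.474 and 2.37 FPKM at E17.5, 0.406 and 0.226 at P0.5, 4.71 and 14.7 at P7.5, and 15.2 and 15.6 in adults. Both later stages lay above both earlier ones in retina. By mean FPKM the order of the 12 groups ran from adult Cre-negative SC (235 FPKM) down to P0.5 retina (0.316 FPKM), and among neighbors in the SC part of that order the libraries overlapped. At E17.5 the overlapping gene Nme7 was high in the same libraries as Atp1b1, at 54.0 FPKM in Cre-positive replicate 1 and 133 FPKM in Cre-negative replicate 1 against 0 in both replicates numbered 2. At other stages the 2 genes did not go together: Nme7 was at 0 to 0.00558 FPKM in the 4 P0.5 SC libraries, and at 0 in adult Cre-positive replicate 1, where Atp1b1 was at 242 FPKM. Its part in the E17.5 values was not tested.

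Atp1b2 was low in the SC libraries with FPKM. It was listed at 0 in 10 of 16 of these and reached the 3-fragment level in 3. The adult Cre-positive SC library with read counts, without run-off, held 170 reads of Atp1b2 beside 447 of Atp1b1. Its highest SC values were 9.06 FPKM in E17.5 Cre-negative replicate 1, 6.38 in adult Cre-positive replicate 1 and 3.86 in adult Cre-negative replicate 1, each with a replicate at 0 or 0.0248. In retina it stood at 0 and 0.988 FPKM at E17.5, 0.654 and 0.263 at P0.5, 0.230 and 7.84 at P7.5, and 0.0681 and 17.4 in adults. Replicate 2 was far above replicate 1 in the P7.5 and adult pairs. Photoreceptor markers, summed over 8 genes, stood at 2.41 and 313 FPKM in the P7.5 pair, the same order, and at 607 and 251.5 FPKM in the adult pair, the opposite order. Their part in the spread was not tested.

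Atp1b3 was at or near 0 in the SC with 2 exceptions. At P0.5 it stood at 2.91 and 1.59 FPKM in Cre-positive SC and was listed at 0 in both Cre-negative libraries. In adult Cre-positive SC it stood at 170.25 FPKM in replicate 1, about 239.6 estimated fragments, and was listed at 0 in replicate 2. The adult Cre-negative libraries stood at 1.09 and 0 FPKM. In the other 8 SC libraries it was listed at 0, apart from 0.171 FPKM in P7.5 Cre-negative replicate 2. In retina it stood at 0.126 and 4.13 FPKM at E17.5, 0.254 and 0.0549 at P0.5, 0 and 4.77 at P7.5, and 0 and 3.90 in adults, with replicate 2 the higher at 3 of 4 stages.

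**Figure D1:**
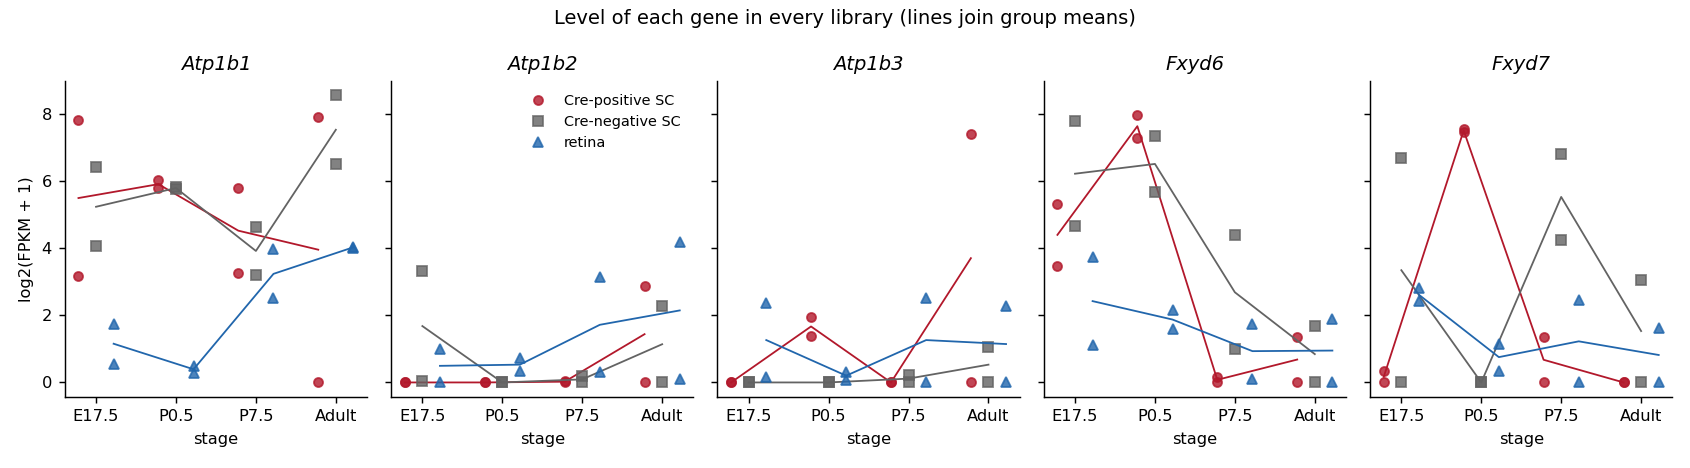
Level of each gene as log2(FPKM + 1) in every library, by stage on the x axis, for SC with Cre (red circles), SC without Cre (gray squares) and retina (blue triangles); lines join the means of 2 libraries. The P0.5 Cre-positive libraries of Fxyd7 sit together at 187 and 178 FPKM while both Cre-negative libraries are at 0, and the adult Cre-positive pairs of Atp1b1 and Atp1b3 split between a high library and 0.

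The make-up of the beta subunits differed between the SC and the eye. Atp1b1 held more than 50% of the summed beta FPKM in 15 of the 15 SC libraries with any beta subunit, with a median share of 99.8% and a lowest share of 57.8%, in adult Cre-positive replicate 1. In retina its share ranged from 30.9% to 99.6% with a median of 48.0%, and it was over 50% in 4 of 8 libraries. At P0.5 retina, Atp1b2 held 49.8% and 48.4% and Atp1b1 30.9% and 41.6%, while in P0.5 Cre-positive SC Atp1b1 held 94.9% and 97.6%. The shares at P0.5 retina rest on a summed level of 1.31 and 0.543 FPKM. No test was run on the shares, which take FPKM as comparable between genes, and the retina libraries also held lens cells. The shares leave out the adult Cre-positive SC library with read counts. Without run-off it held 447 reads of Atp1b1, 170 of Atp1b2 and 0 of Atp1b3.

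**Figure D2:**
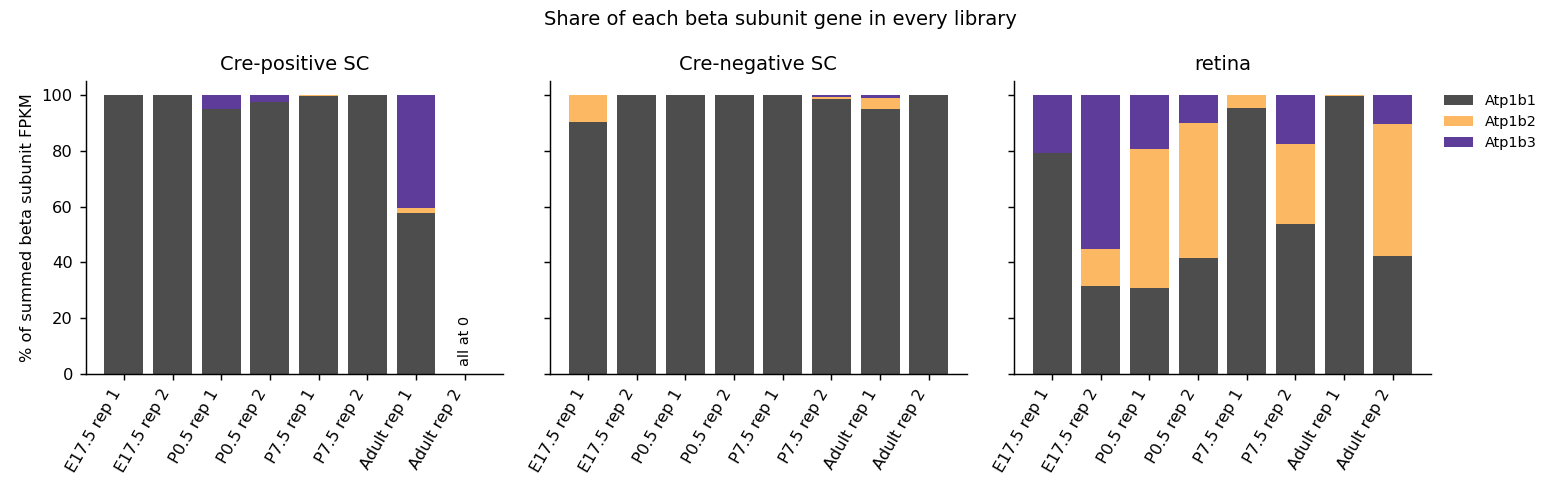
Percent of the summed FPKM of the 3 beta subunit genes held by each, in every library, with 1 panel per tissue and Cre group. Atp1b1 fills nearly the whole bar in the SC, down to 57.8% in adult Cre-positive replicate 1, and between 30.9% and 99.6% in retina; all 3 genes were at 0 in adult Cre-positive replicate 2.

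Within each SC group Fxyd6 was higher before and at birth than afterwards. In Cre-positive SC it stood at 39.4 and 10.1 FPKM at E17.5, 255 and 157 at P0.5, 0 and 0.115 at P7.5, and 1.58 and 0 in adults. The 2 earlier stages lay above the 2 later ones without overlap. In Cre-negative SC the same split was seen, at 223 and 24.2 FPKM at E17.5, 164 and 50.4 at P0.5, 0.980 and 20.1 at P7.5, and 2.23 and 0 in adults. There it rested on 24.2 against 20.1 FPKM. Across the 2 SC groups the stages overlapped, as the 10.1 FPKM of E17.5 Cre-positive SC lay below that 20.1 FPKM. In retina it stood at 1.16 and 12.4 FPKM at E17.5, 3.47 and 2.02 at P0.5, 0.0789 and 2.38 at P7.5, and 0 and 2.74 in adults, with no stage apart from the rest.

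Among the 8 Cre-positive SC libraries with FPKM, Fxyd7 was high in the P0.5 pair. In Cre-positive SC it stood at 0.260 and 0 FPKM at E17.5, 187 and 178 at P0.5, 0 and 1.55 at P7.5, and 0 in both adult libraries. Both P0.5 libraries lay above all others, and these 2 libraries differed by less than the distance to any other stage. In Cre-negative SC it stood at 103 and 0 FPKM at E17.5, 0 in both libraries at P0.5, 18.0 and 113 at P7.5, and 7.38 and 0 in adults. The stage at which the tagged SC was high was thus the stage at which the untagged SC was at 0, and at P7.5 the order was the opposite. The E17.5 value of 103 FPKM came from the shallowest library and stood for about 24.6 estimated fragments, whereas the P0.5 values stood for about 592 and 763. In retina Fxyd7 stood at 4.37 and 6.02 FPKM at E17.5, 0.279 and 1.23 at P0.5, 0 and 4.48 at P7.5, and 0 and 2.12 in adults. Of its neighbors on chromosome 7, Fxyd5 was listed at 0 in all 24 libraries and Fxyd1 at 0 in the 4 P0.5 SC libraries, where a listed 0 does not show absence.

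Setting Cre-positive against Cre-negative SC asks which mRNAs were recovered through tagged axonal ribosomes. Differences are in log2(FPKM + 1), which understates the change of low genes, and were tested with limma over the 5983 genes with at least 1 FPKM in at least 2 SC libraries, with Benjamini-Hochberg adjusted p below 0.05 as the threshold. All 5 members passed this filter. At P0.5, 1 of the 5 members, Fxyd7, was called, where 32.5% of all genes were called. Fxyd7 was higher in Cre-positive SC by 7.52 (SE 1.88, limma adjusted p = 0.0104), in 2 of 2 libraries against both controls. The median over all genes at this stage was itself 0.78 higher in Cre-positive SC. The P0.5 Cre-negative libraries listed 2162 and 2546 genes above 0, at 6.783 M and 12.03 M estimated fragments. The P0.5 Cre-positive libraries listed 4620 and 4923 genes above 0, at 6.92 M and 9.388 M. The part of these gene counts in the Fxyd7 difference was not tested. No fold is given, as Fxyd7 was listed at 0 in both Cre-negative libraries. The call was lost when any of the 4 P0.5 libraries was left out (limma adjusted p between 0.0565 and 0.0791), with the difference between 7.48 and 7.56. The other members differed at P0.5 by 1.67 (SE 1.70) for Atp1b3, 1.13 (SE 1.48) for Fxyd6, 0.12 (SE 2.34) for Atp1b1 and 0.00 (SE 1.13) for Atp1b2. With only the 4 P0.5 libraries in the fit, Atp1b3 also passed, but so did most of all genes tested in that fit.

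At P0.5, 2 of the 8 lists of markers of other cells also separated the Cre groups. The 6 astrocyte markers summed to 58.3 and 51.6 FPKM in Cre-positive SC, with 3 of 6 above 0 in each library, and to 15.9 and 38.3 FPKM in Cre-negative SC, with 2 and 3 of 6 above 0. The 4 microglial markers were at 0 in both Cre-positive libraries and summed to 77.0 and 43.2 FPKM in the Cre-negative ones, where 1 of 4 was above 0. Their part in the Fxyd7 difference was not tested.

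At the other stages 0 of the 5 members were called for Cre, beside 1.57% of all genes at E17.5, 0.15% in adults and 0% at P7.5. At E17.5 the share of all calls that were higher in Cre-positive SC moved from 29.8% to 47.2% under upper-quartile scaling. Fxyd7 there had a difference of -3.18 (SE 1.88, limma adjusted p = 0.601), with overlapping libraries. Without the E17.5 Cre-negative replicate 2 the Fxyd7 difference was -6.54, and then rested on the shallow library alone. At P7.5 the Fxyd7 libraries did not overlap, and the difference was -4.86 (SE 1.88, limma adjusted p = 1, unadjusted p = 0.0266). At this stage limma called 0 genes of any kind, and 84 of 5983 genes had an unadjusted p below 0.05. Fxyd6 likewise did not overlap at P7.5, with a difference of -2.61 (SE 1.48, limma adjusted p = 1). Atp1b2 did not overlap at E17.5, with both Cre-positive libraries at 0 and the Cre-negative ones at 9.06 and 0.0248 FPKM. The share of all genes without overlap is not given for this or any other comparison, so such separations only describe the libraries. In the adult, Atp1b3 differed by 3.18 (SE 1.70, limma adjusted p = 1) and Atp1b1 by -3.58 (SE 2.34, limma adjusted p = 1), each with libraries that overlapped. Without adult Cre-positive replicate 2, in which all 5 members were at 0, Atp1b3 passed at 6.89 (limma adjusted p = 0.000982), from a single Cre-positive library. At an unadjusted p below 0.05, Fxyd7 at P7.5 was the single member at these 3 stages. Averaged over the 4 stages, 0 of 5 members were called beside 12.4% of all genes, with differences from -0.87 for Fxyd6 to 1.18 for Atp1b3. Here too Atp1b3 passed without adult Cre-positive replicate 2, at 2.11 (limma adjusted p = 0.0102).

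**Figure D3:**
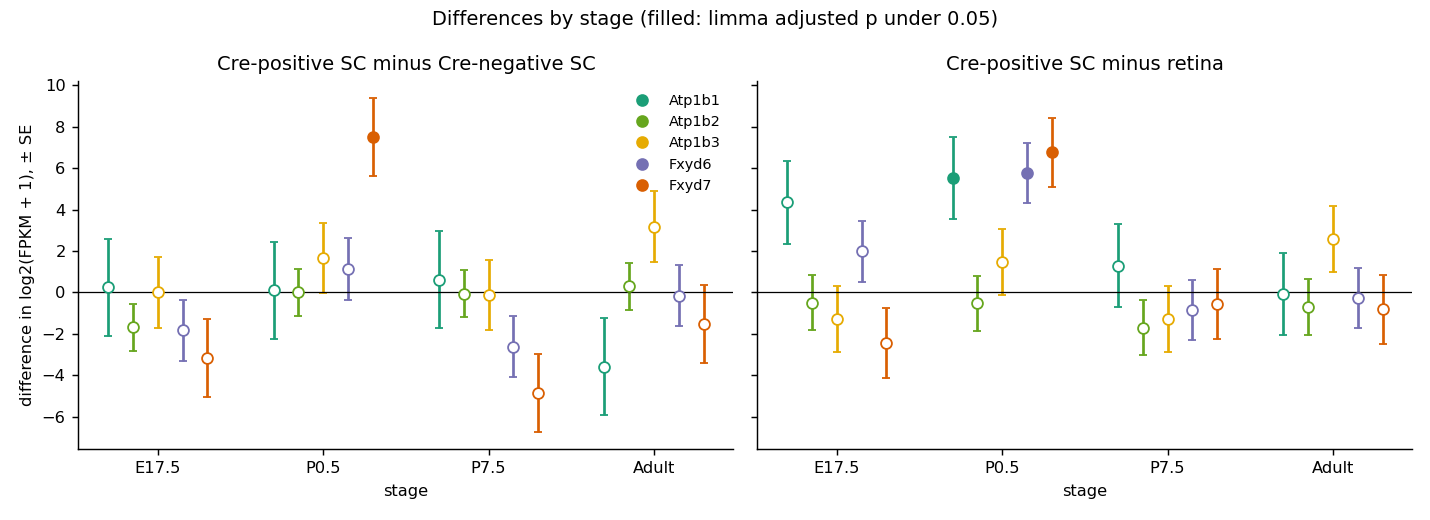
Differences in log2(FPKM + 1) with their SE from limma, by stage, for Cre-positive minus Cre-negative SC (left) and Cre-positive SC minus retina (right); filled points had an adjusted p below 0.05. On the left only Fxyd7 at P0.5 is filled, at 7.52, and its points at E17.5 and P7.5 lie below 0; on the right Atp1b1, Fxyd6 and Fxyd7 are filled at P0.5 under the deposited scaling, none of which passed after upper-quartile scaling.

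The effect of Cre differed between stages for Fxyd7, by an F test of the stage and Cre interaction over 4 stages (limma F = 8.62, adjusted p = 0.0214). This was 1 of 5 members, beside 21.9% of all genes. Its difference between Cre groups was positive at P0.5 and -4.86 at P7.5. The negative values at E17.5 and in adults each came from Cre-negative replicate 1, without which they were 0.17 and 0, and in the adult that library held about 1.87 estimated fragments, under the floor of 3. The interaction fell short of the threshold when any of the 4 P0.5 libraries was left out, with F between 5.63 and 5.82, and the range of its limma adjusted p over all 16 fits without 1 library was 0.000778 to 0.187. For the other 4 members F was between 0.622 and 1.29, except that Atp1b3 passed without adult Cre-positive replicate 2 (F = 29.4).

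Changes between consecutive stages within Cre-positive SC span axon growth, branching, pruning and maturity. They also hold any change in the background of the purification. From E17.5 to P0.5, 1 of 5 members was called beside 26.9% of all genes: Fxyd7 rose by 7.35 (SE 1.88, limma adjusted p = 0.0132). Fxyd6 differed by 3.24 (SE 1.48, limma adjusted p = 0.149), and all its P0.5 libraries were above those of E17.5. In these libraries 3 marker lists that rose and the lens list, which fell, did not overlap between E17.5 and P0.5. The lens markers went from 9.43 and 2.65 FPKM to 0 and 1.95 FPKM. Of these 6 genes, 5 and 4 were above 0 at E17.5, and 0 and 3 at P0.5. The Müller glia markers summed to 52.6 and 15.7 FPKM at E17.5, with 2 and 3 of 4 above 0. At P0.5 they summed to 1646 and 1167 FPKM, with 3 of 4 above 0. Within this list Apoe reached 1549 FPKM in Cre-positive SC, and Rlbp1 was at 0 in all 8 libraries. The sum thus does not show Müller glia in the SC. The oligodendrocyte markers summed to 0.0601 and 2.72 FPKM and then to 84.7 and 86.6 FPKM, with 1 of 6 above 0 in each library, and the astrocyte markers to 27.8 and 36.3 FPKM, with 2 and 3 of 6 above 0, and then to 58.3 and 51.6 FPKM, with 3 of 6. Their part in the Fxyd7 change was not tested. The Fxyd7 call was lost without E17.5 replicate 2 or without either P0.5 replicate, with the difference between 7.19 and 7.39. From P0.5 to P7.5, 2 of 5 members were called beside 29.8% of all genes, nearly all of which fell. Fxyd6 changed by -7.57 (SE 1.48, limma adjusted p = 0.00258) and Fxyd7 by -6.84 (SE 1.88, limma adjusted p = 0.0186), where the median of all genes was -1.20. In Cre-negative SC Fxyd6 fell as well, from 164 and 50.4 FPKM to 0.980 and 20.1, while Fxyd7 rose from 0 in both libraries to 18.0 and 113. Fxyd6 lost its call without P0.5 replicate 1 (-7.22), and Fxyd7 without any of the 4 libraries of this comparison or with a pseudocount of 0.1. These 2 comparisons share the P0.5 libraries, and P7.5 differed from P0.5 in marker sums too. The astrocyte markers summed to 58.3 and 51.6 FPKM at P0.5, with 3 of 6 above 0, and to 300 and 669.6 FPKM at P7.5, with 3 and 4 of 6 above 0. The Müller glia markers summed to 1646 and 1167 FPKM at P0.5 and to 206.5 and 67.9 FPKM at P7.5, with 3 of 4 above 0 in each library. The oligodendrocyte markers summed to 26.6 and 63.8 FPKM at P7.5, with 2 and 1 of 6 above 0, below P0.5. The red blood cell markers summed to 8.75 and 160.8 FPKM at P0.5, with 3 of 4 above 0, and to 0 and 6.18 FPKM at P7.5, with 0 and 2 of 4. Their part in the changes was not tested. Upper-quartile scaling moved the median of all genes from 0.69 to 0.00 for the first of these steps and from -1.20 to -0.03 for the second, with no change in which members were called. From P7.5 to the adult 0 of 5 members were called, beside 0.0836% of all genes, none had an unadjusted p below 0.05, and the largest difference was 3.71 for Atp1b3 (SE 1.70, limma adjusted p = 1). Without adult replicate 2 it passed at 7.42 (limma adjusted p = 0.000723).

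In retina 0 of 5 members changed with stage by the limma F test over 4080 genes, beside 0.539% of all genes, and 162 of all genes had an unadjusted p below 0.05. The largest F was 1.98, for Atp1b1 (limma adjusted p = 1), whose P7.5 and adult values lay above the earlier ones in every library. Within the P7.5 and adult pairs the members followed the replicate more than the stage: Atp1b2, Atp1b3, Fxyd6 and Fxyd7 were each higher in replicate 2 at both stages. These replicates had 3449 and 3692 genes at 1 FPKM or more, against 1165 and 1428 in replicate 1.

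The comparison of Cre-positive SC with retina sets axon against cell body. It used 7193 genes over all 24 libraries, and it shares its Cre-positive libraries with the comparisons above. At P0.5, 3 of 5 members were called, beside 27.9% of all genes. Fxyd7 was higher in the axon by 6.77 (SE 1.68, limma adjusted p = 0.00603), Fxyd6 by 5.77 (SE 1.46, limma adjusted p = 0.00682) and Atp1b1 by 5.53 (SE 2.0, limma adjusted p = 0.0496). In all 3 both axonal libraries lay above both retina libraries. For Atp1b1 and Fxyd6, both Cre-negative SC libraries lay above both retina libraries as well, so for them the order held without the tag, while for Fxyd7 the Cre-negative libraries were at 0 and below retina. These calls depended on scaling. After upper-quartile scaling 0 of 5 were called, with differences of 2.57, 0.69 and 1.88, the median of all genes moved from 0.33 to -0.93, and the share of calls that were higher in the axon went from 94.7% to 17.8%. Atp1b1 also fell short when any of the 4 P0.5 libraries compared was left out (limma adjusted p between 0.154 and 0.197) and without the filter on low values (limma adjusted p = 0.0889). The study describes axon and retina as coming from the same animals, and with the replicate number as a block Atp1b1 missed the threshold (limma adjusted p = 0.0518), while Fxyd6 and Fxyd7 were called. Fxyd6 lost its call without axonal replicate 1 (limma adjusted p = 0.0997) or retina replicate 2 (limma adjusted p = 0.0564), and Fxyd7 without replicate 1 of the axon (limma adjusted p = 0.0593) or of retina (limma adjusted p = 0.0516). With a pseudocount of 0.1 none of the 3 passed. Every marker list was apart between P0.5 retina and Cre-positive SC. Lens markers stood at 464 and 376 FPKM in P0.5 retina, with 6 of 6 above 0, against 0 and 1.95 in Cre-positive SC. RGC markers stood at 4043 and 1231 FPKM against 300 and 110, and oligodendrocyte markers at 3.95 and 2.79 FPKM against 84.7 and 86.6. The Müller glia list stood at 11.03 and 9.36 FPKM against 1646 and 1167. Within it Apoe reached 1549 FPKM in Cre-positive SC and 59 in retina, so the sum does not show Müller glia in the SC. The part of these markers in the calls was not tested.

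At the other stages 0 of 5 members were called between axon and retina, beside 1.32% of all genes at E17.5, 0.0973% in adults and 0% at P7.5. At P7.5, 212 of 7193 genes had an unadjusted p below 0.05 by limma. Atp1b1 differed by 4.35 at E17.5 (SE 2.0, limma adjusted p = 0.485), without overlap, by 1.29 at P7.5 and by -0.07 in adults. At E17.5 it was the single member at these stages with an unadjusted limma p below 0.05. Both Cre-negative SC libraries of E17.5 lay above both retina libraries for Atp1b1 as well, so the order held without the tag. Fxyd7, the reverse of its P0.5 order, lay below retina at E17.5 in both libraries, by a difference of -2.45 (SE 1.68, limma adjusted p = 0.691). Atp1b3 passed in the adult without Cre-positive replicate 2, at 6.27 (limma adjusted p = 0.00519).

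Genes that work beside the pump were given by lists of 10 transporters that run on the sodium gradient or set chloride and of 5 calcium pumps. In the SC fit 4 of each passed the filter. None of either was called in any comparison, with smallest limma adjusted p values of 0.0728 for the transporters and 0.0888 for the calcium pumps.

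The genes whose pattern was most like each member were found over the 12 group means of log2(FPKM + 1), among 7193 genes, as a description. For Fxyd7 they were Tssc4 (Pearson r = 0.939) and Camkv, a calmodulin kinase-like vesicle protein (r = 0.932). Camkv repeated both features of Fxyd7, at 54.5 and 47.3 FPKM in P0.5 Cre-positive SC with 0 in Cre-negative, and at 3.90 and 25.8 FPKM in P7.5 Cre-negative SC with 0 and 0.225 in Cre-positive. For Fxyd6 they were Gm1673 (r = 0.973) and Sst, the neuropeptide somatostatin (r = 0.971). For Atp1b1 they were Pgbd5 (r = 0.908) and Ttc3 (r = 0.892), and for Atp1b2 Syt1, a vesicle calcium sensor (r = 0.931), and Tcta (r = 0.904). For Atp1b3 they were Cd99l2 (r = 0.910) and Lage3 (r = 0.906), each through a single adult library: Lage3 stood at 433 FPKM in adult Cre-positive replicate 1, the library in which Atp1b3 was high, while Cd99l2 stood at 380 FPKM in replicate 2 and at 0 in replicate 1. The likeness of Cd99l2 thus held for the group means and not library by library. Between members the highest correlation was 0.50, of Fxyd6 with Fxyd7, and the lowest -0.38, of Atp1b2 with Fxyd6. The 12 groups share 4 stages and 1 strain, and their libraries differ in depth.

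During run-off, ribosomes that are translating complete the protein and release the mRNA before purification, so the comparison asks which mRNAs were held by translating ribosomes. No Cre-negative library belongs to it, so stalled mRNA and background of the purification cannot be told apart in the reads left after run-off. With 1 library per condition there is no replicate and no test, and intervals cover counting error of reads only. As PCR copies of a molecule were counted as separate reads, the intervals may be too narrow even for that. The SC libraries held 3262914 reads on genes without and 349395 with run-off, or 10.7% as many, and the retina libraries 4686284 and 315009, or 6.72%. Genes were compared as shares of these totals, and those with at least 10 reads without run-off were counted where the share with run-off was at or below 0.5 of that without. In the SC, 3 of the 4 members with enough reads met this rule, beside 74.7% of 4010 genes. In retina 1 of 4 did, beside 63.4% of 6674 genes.

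Atp1b1 went against the rest in the SC. It had 447 reads without run-off and 317 with it, or 137 and 907 CPM (reads scaled to a common library total). Its share was 6.62 times higher with run-off (95% exact binomial interval 5.72 to 7.67), and 185 of 4010 genes (4.61%) had a ratio as high or higher. Scaled by the median ratio of genes with reads in both libraries, the ratio was 3.94, and as reads without scaling it was 0.709, below 1, so the direction rests on the scaling. In raw reads Atp1b1 kept 70.9% of its reads where the library kept 10.7%. Adult Cre-negative SC, the background of the purification, held Atp1b1 at 90.6 and 379 FPKM. In retina it had 585 and 58 reads, a ratio of 1.48 (1.11 to 1.93) as shares, 0.519 by the median ratio and 0.0992 without scaling.

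Atp1b2 had 170 reads in the SC without run-off and 0 with it, a share at least 6.07-fold lower against a floor of 3 reads in the run-off library, with an upper end of 0.205 for the exact interval of the ratio. In retina it had 454 and 25 reads, a ratio of 0.819 (0.525 to 1.23). The gene was thus not detected after run-off in the SC and was in retina, at different depths. Fxyd7 had 87 reads in the SC without run-off and 0 with it, a share at least 3.105-fold lower against that floor, with an upper end of 0.404 for the ratio, and 0 and 1 reads in retina. Fxyd6 had 36 and 1 reads in the SC, a ratio of 0.259 with an interval from 0.00639 to 1.54 that spans 1, and 62 and 12 reads in retina, a ratio of 2.88 (1.41 to 5.40). By the median ratio the retina value of Fxyd6 was 1.01 and without scaling 0.194. Atp1b3 had no read in either SC library and 90 and 0 reads in retina, a share at least 2.02-fold lower against that floor, with an upper end of 0.622 for the ratio, above the 0.5 of the rule.

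**Figure D4:**
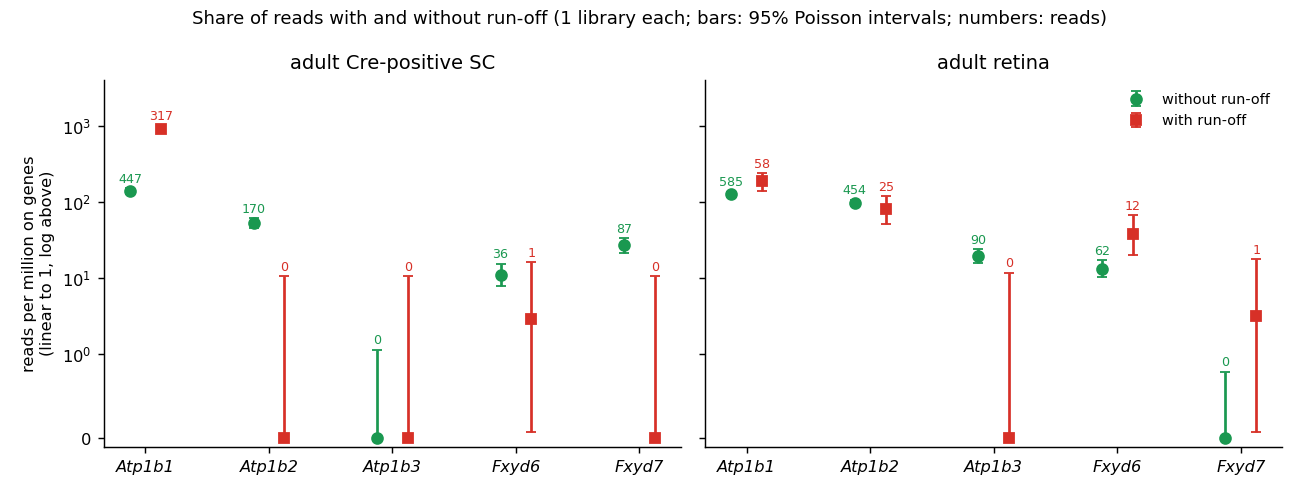
CPM (reads per gene scaled to a common library total) without (green circles) and with run-off (red squares) for each gene in adult Cre-positive SC and adult retina, 1 library each, with 95% Poisson intervals and the number of reads above each point; the axis is linear up to 1 and logarithmic above. Atp1b1 has a higher share with run-off in the SC, though fewer reads (317 against 447), and Atp1b2 and Fxyd7 fall to 0 reads there.

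The SC library without run-off is a further adult Cre-positive SC library, counted with another tool than the 2 with FPKM. Atp1b3, at 170.25 FPKM in the first of those, had 0 of 3262914 reads in it, which allows a share of up to 0.919 CPM. Fxyd7, at 0 in both, had 87 reads. Atp1b1 and Atp1b2 reached 3 fragments or reads in 2 of the 3 libraries, and Atp1b3, Fxyd6 and Fxyd7 in 1, so none of the 5 genes did in all 3. Fxyd6 was listed in a second one at about 1.97 estimated fragments.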

How the data were processed

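The study's labels and methods state how the files were made. Immunopurified RNA was reverse-transcribed from oligo-dT, amplified by PCR and sequenced without strand. Per the labels, the authors used TopHat2 2.0.12 and mm10, and deposited FPKM from Cufflinks 2.2.1 for 24 libraries. Counts of reads per gene, made with HTSeq 0.6.1p1 and not normalized, were deposited for the 4 libraries of the run-off experiment; the study adjusted library input to the amount of cDNA. In the FPKM files 4 genes had a missing value, none of them a member, and were left out.

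Group and replicate came from the sample titles. The study states that axon and retina came from the same animals, and no label says which libraries share them, so p-values measure the spread between these libraries, which may be technical. Since FPKM are not counts, limma 3.58.1 (statmod 1.5.0, R 4.3.3) was fitted to log2(FPKM + 1) with trend and robust moderation, over genes that reached 1 FPKM in 2 or more of its libraries: 16 SC libraries, 8 retina libraries, or all 24 for axon against retina. Tests were two-sided and adjusted by Benjamini-Hochberg over all genes of a fit. The fits were tested on simulated data. Depth was estimated from 1-transcript genes of at least 1000 bases with a fragment length of 200 bases assumed; floors were set at 3 fragments or reads. Run-off shares carry exact binomial 95% intervals. Positions and lengths came from GENCODE vM21, on the same assembly as mm10, and similar transcripts from blastn 2.17.0+. Other steps used matplotlib 3.10.9, scipy 1.17.1, numpy 2.4.6 and pandas 2.3.3 under Python 3.11.15.

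The named genes were all 5 members, the 2 genes most correlated with each, and genes of the transporter and calcium pump lists that passed a test, of which there were none. A list of other pump genes is not reported here. Members, lists and rules were chosen with earlier results of these data known. Camkv, Lage3 and Cd99l2 were singled out among the correlated genes, and Nme7, Fxyd1, Fxyd5, Gapdh and Actb as context, after their values were seen. Alternatives were a pseudocount of 0.1, no filter, upper-quartile scaling, no moderation by trend, a replicate block, only the groups compared, leaving out each library, and for run-off no scaling, median-ratio scaling and at least 50 reads.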

Additional observations from a re-analysis of the deposited data

Results flagged for a closer look

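The effect of Cre on Fxyd7 differed between stages by the limma interaction test (F = 8.62, adjusted p = 0.0214). Fxyd7 was higher in Cre-positive than in Cre-negative SC at P0.5, by 7.52 in log2(FPKM + 1), and differed the other way at P7.5, by -4.86, where the test of that stage alone had an adjusted p of 1. Of all genes tested, 21.9% passed the same test, and the call did not survive the loss of any P0.5 library. The P0.5 Cre-negative libraries listed 2162 and 2546 genes above 0, against 4620 and 4923 in the Cre-positive ones. The part of these gene counts in the call was not tested. The groups of 2 libraries were too small for a search for outlying samples.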

How the results depend on the processing

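Among FPKM comparisons, 136 of 165 counts of called members stayed within 1.5 times the main count, and 759 of 802 single values kept their side of the threshold. Most main counts were 0 and most single values were uncalled, so these totals say little about how stable the calls were. Of the values that changed side, 33 lost a call and 10 gained one. No called value turned its sign, and 37 uncalled ones did. For axon against retina at P0.5 the count of 3 went to 0 with a pseudocount of 0.1 and to 0 with upper-quartile scaling. For P0.5 to P7.5 the count of 2 went to 1 with a pseudocount of 0.1. With only the groups compared, the count went from 1 to 2 for Cre at P0.5 and for E17.5 to P0.5. Both of these fits also called a larger share of all genes than the main fit. For Cre at P0.5 most of all genes tested were called. Leaving out 1 library gave counts of 0 to 1 for Cre at E17.5, in the adult and over all stages, 0 to 0 for Cre at P0.5, 0 to 2 for stage by Cre, 0 to 1 for each step between stages from E17.5 to P0.5, P0.5 to P7.5 and P7.5 to adult, and, for axon against retina, 0 to 2 at P0.5 and 0 to 1 in the adult. In the retina run-off the count of 1 became 4 for reads without scaling and 2 with median-ratio scaling. The cause of these moves was not tested. The labels do not say that a replicate number marks shared animals, so the block is an alternative; the deviations of same-numbered Cre-positive and Cre-negative libraries correlated at 0.0619 to 0.429. The replicate block lost 1 call, Atp1b1 between axon and retina at P0.5 (limma adjusted p = 0.0518), and changed no other. Depth limits E17.5 Cre-negative replicate 1 and the adult SC, where 3 fragments of Fxyd7 stand for up to 12.6 and 11.8 FPKM.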
